A study of Nothobranchius furzeri and Iconisemion striatum and Callopanchax occidentalis with 18 samples.

Results

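Annual killifish inhabit seasonal ponds and survive the dry season as embryos in diapause, a reversible arrest of development. The libraries of annual embryos labelled as in diapause were compared between species: 1 of Callopanchax occidentalis, 1 of Nematolebias papilliferus and 5 of Nothobranchius furzeri, so 7 of the 18 small RNA libraries of the series. All 7 were made from whole somite-stage embryos, in which body segments are forming. They were chosen by species and by the diapause label alone. The question was which microRNAs (miRNAs) all annual embryos in diapause shared, and which miRNAs set C. occidentalis and N. papilliferus apart from N. furzeri.

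No strain or time in diapause is given for C. occidentalis or N. papilliferus. N. furzeri library 1 was of strain MZM0403 and library 2 of strain MZM0410, both with no time given. N. furzeri library 3 was of MZM0410 after 2 weeks in diapause, and libraries 4 and 5 were of GRZ x MZZW after 1 month and 2 months. N. furzeri libraries are numbered this way throughout. The other 11 libraries were of N. furzeri not in diapause (3 libraries, MZM0410) and of 5 species labelled non-annual and not in diapause (8 libraries). They serve only to show how widely a miRNA was found. Below, annual and non-annual stand for the label alone. C. occidentalis and N. papilliferus had no replicate, so a species and its library cannot be told apart, and neither had a library out of diapause.

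A miRNA is a short RNA that guides the silencing of mRNAs that pair with its seed, the bases near its 5′ end. Each hairpin precursor has a 5p and a 3p arm, and usually 1 of them accumulates. Several families mark steps or tissues of fish development. miR-430, known best from zebrafish, clears maternal mRNAs in the early embryo. miR-10 and miR-196 genes lie inside the Hox clusters that pattern the body axis. miR-17-92 clusters favour cell proliferation, and miR-1, miR-133 and miR-206 belong to muscle.

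Counts on miRNAs were 758683 in C. occidentalis and 926161 in N. papilliferus, against 579183 to 4103430 in the N. furzeri libraries. Of the 291 mature miRNAs listed, 206 and 225 had at least 1 count in these species, against 206 to 240 in N. furzeri. C. occidentalis, N. papilliferus and N. furzeri libraries 1 and 2 carried names of lane 1 in the deposited table, N. furzeri libraries 3 and 4 of pool 3 and library 5 of pool 2. N. furzeri library 1 stood apart from the other 4: it had 0.685% of its counts on neural miRNAs and 1.14% on sensory miRNAs, where the others had at most 0.0326% and 0.139%. The numbers of calls and of lists outside the range are given with and without it. Not every miRNA whose call changed without it is named. In bulk libraries, fewer cells of a type and less of a miRNA per cell cannot be told apart.

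Shared by all 7 diapause libraries, at 50 RPM (a miRNA's counts scaled to its library's total of miRNA counts) or more in each, were 59 of the 291 miRNAs. These 59 held 99.6% of the miRNA counts in C. occidentalis, 99.4% in N. papilliferus and 98.2% to 99.8% in N. furzeri. At a minimum of 10 RPM 91 miRNAs were shared, and at 500 RPM 20 were. All 59 also reached 50 RPM in the 3 N. furzeri libraries not in diapause, and 49 of the 59 did in each of the 11 other libraries, non-annual species included. No shared miRNA was therefore found only in diapause embryos at this minimum.

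The 10 shared miRNAs that fell under 50 RPM in some non-annual library were miR-19a-3p, miR-27c-3p, miR-30d, miR-92b-3p, miR-126a-5p, miR-126b-5p, miR-143, miR-183-5p, miR-200a-3p and miR-375. miR-30d was the least widely found of them, at 50 RPM in 7 of the 11 other libraries. miR-375, known from the pancreas and from neuroendocrine cells, had 136 RPM in C. occidentalis and 320 RPM in N. papilliferus, against 412, 242, 301, 193 and 300 RPM in N. furzeri libraries 1 to 5. N. papilliferus lay among the N. furzeri libraries and C. occidentalis below them. miR-126a-5p and miR-126b-5p had nearly the same counts in each library, so reads of 1 may have been counted on the other.

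miR-10b-5p, a Hox cluster miRNA, was the most abundant miRNA in each of the 7 libraries. It had 547624 counts in C. occidentalis and 662013 in N. papilliferus, against 797941, 353378, 1783237, 3074478 and 872434 in N. furzeri libraries 1 to 5. miR-10d-5p, of the same family, had rank 2 in every library except N. furzeri library 2, where it had rank 3. miR-10b-5p and miR-10d-5p together took 90.8% of counts in C. occidentalis and 84.2% in N. papilliferus, against 68.2%, 69.7%, 82.1%, 91.5% and 86.2% in N. furzeri libraries 1 to 5. N. furzeri spanned both other species here, and its lane 1 libraries had the lowest shares. The number of miRNAs that made up 90% of counts was 2 in C. occidentalis and 5 in N. papilliferus, against 10, 8, 4, 2 and 4 in N. furzeri.

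Because miR-10b-5p took so much of each library, levels are compared below mostly as TMM-scaled CPM, counts divided by a library size that is adjusted on the bulk of the miRNAs. With the adjusted sizes, the CPM of a library no longer sum to the same total. Log2 fold changes come from edgeR's quasi-likelihood test with 3 species groups, and adjusted p is by Benjamini and Hochberg over the 204 miRNAs that passed the filter on low counts. The filter asks for enough counts in at least 1 library, so 14 of the 204 passed it only through C. occidentalis or N. papilliferus and 28 only through N. furzeri. For such miRNAs the filter itself selected for a difference, and their p-values are given as a description. All of the spread in that test comes from the 5 N. furzeri libraries, and the 2 other libraries are assumed to vary like them. Whether the N. furzeri libraries stem from different clutches is not stated. The p-values therefore cover only the spread among these libraries. That spread mixes strain, time in diapause and the lane or pool of the name, and part of it may be technical.

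On this scale, miR-10b-5p had 818689 CPM in C. occidentalis and 504721 CPM in N. papilliferus, against 297973 to 1949860 CPM in N. furzeri. The mean of both species differed from N. furzeri by a log2 fold change of -0.42 (SE 0.87, 95% interval -2.44 to 1.60), and its sign changed with the scaling, to 0.11 with library totals only. miR-26a-5p, found in most tissues, had the smallest SD of log2 CPM over the 7 libraries, 0.35, among the 20 shared miRNAs of at least 500 RPM. It had 7026 CPM in C. occidentalis and 4294 CPM in N. papilliferus, against 8888, 6532, 5334, 5449 and 7612 CPM in N. furzeri, a log2 fold change of -0.30 (95% interval -1.36 to 0.76) that turned to 0.01 with DESeq2's size factors. These intervals are wide, so equal levels were not shown.

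miR-92a-3p, a member of the miR-17-92 family, had rank 3 in C. occidentalis and N. papilliferus and rank 4 in each N. furzeri library. It had 19074 CPM and 23828 CPM in the 2 species, against 27334 to 40828 CPM in N. furzeri, with a log2 fold change of -0.60 (SE 0.49) that did not pass the test (adjusted p = 0.576). miR-92a-3p was thus lower in each of the 2 species than in each N. furzeri library on the CPM scale. This did not hold in RPM, where N. papilliferus had 33746 RPM. Its log2 fold change was also near the median of all 204 miRNAs tested, -0.53. miR-205-5p and miR-203a-3p, miRNAs of epithelia, were also among the abundant shared ones. miR-205-5p had 1621 and 2718 CPM in the 2 species, against 3477 to 5229 CPM in N. furzeri (log2 fold change -1.10, SE 0.45, adjusted p = 0.233). miR-203a-3p had 2062 and 2601 CPM, against 2322 to 10180 CPM.

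For miR-10c-5p, miR-22a-3p, miR-21 and miR-181a-5p, also abundant in all 7 libraries, N. papilliferus lay inside the N. furzeri range. C. occidentalis lay below that range for each of them except miR-10c-5p. miR-10c-5p had 15984 CPM in C. occidentalis and 9036 CPM in N. papilliferus, against 3159 to 26856 CPM in N. furzeri. miR-22a-3p had 2371 and 4491 CPM, against 3155 to 6015 CPM, and its log2 fold change of -0.55 (SE 0.48) did not pass the test (adjusted p = 0.615). miR-21 had 1275 and 3142 CPM, against 2986 to 12599 CPM in N. furzeri, and C. occidentalis lay well below all 5. miR-181a-5p had 5413 and 12974 CPM, against 43252 CPM in N. furzeri library 1 and 5525 to 18086 CPM in the other 4. Of the 59 shared miRNAs, 22 lay inside the N. furzeri range in both species, 2 above it in both (miR-30c-5p and miR-192) and 9 below it in both. Over all 204 miRNAs tested, 6.86% lay above it in both and 15.2% below it in both, so these counts are given as a description. In RPM 30 lay inside the range in both species, so the position of many shared miRNAs depended on the scale.

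The shared miRNAs miR-16b, miR-19b-3p, miR-222a-3p, miR-456, miR-25-3p and miR-27b-3p did not pass the test of the mean. miR-16b, of the miR-15/16 family that restrains the cell cycle, had 765 CPM in C. occidentalis and 803 CPM in N. papilliferus, against 382 to 868 CPM in N. furzeri. miR-19b-3p of the miR-17-92 family had 872 and 1054 CPM, against 666 to 2054 CPM (log2 fold change of the mean -0.51, SE 0.58). miR-222a-3p had 1875 and 2466 CPM, against 682 to 3227 CPM (0.51, SE 0.64). All 3 lay inside the N. furzeri range in both species. miR-456 had 739 CPM in C. occidentalis and 1827 CPM in N. papilliferus, against 894 to 2342 CPM (-0.25, SE 0.51), with a sign that turned with DESeq2's size factors. miR-25-3p had 1803 and 3573 CPM, against 2247 to 6839 CPM (-0.75, SE 0.56). C. occidentalis lay just below N. furzeri for both, and N. papilliferus inside it. miR-27b-3p had 1200 and 531 CPM, against 1104 to 2275 CPM (-1.22, SE 0.50), and there N. papilliferus was the low one.

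The most abundant members of the other lists also had counts in all 7 libraries, with 1 exception. let-7a, a miRNA that accumulates as cells differentiate, had 148 CPM in C. occidentalis and 136 CPM in N. papilliferus, against 881 CPM in N. furzeri library 1 and 82.3 to 315 CPM in the other 4. miR-196a-5p of the Hox clusters had 280 and 289 CPM, against 245 to 919 CPM. miR-100-5p had 670 and 355 CPM, against 82.5 to 2591 CPM. These 3 were inside the N. furzeri range in both species. miR-184, a lens miRNA, had 919 and 805 CPM, against 984 and 783 CPM in the lane 1 libraries of N. furzeri and 5070 to 8656 CPM in the pools. Here the 2 species were near the N. furzeri libraries of lane 1. In CPM, both lane 1 libraries of N. furzeri lay below its pools for 11.3% of the 204 miRNAs tested and above them for 10.8%. What lane and pool stand for is not stated, and their part was not tested. miR-182-5p of sensory cells had 2171 and 1632 CPM, against 796 to 5520 CPM, miR-462 had 248 and 139 CPM, against 131 to 230 CPM, and miR-148 had 121 and 148 CPM, against 124 to 274 CPM. The cartilage miRNA miR-140-3p had 76.2 CPM in C. occidentalis and 217 CPM in N. papilliferus, against 183 to 325 CPM. miR-126b-3p of blood vessels had 327 and 285 CPM, against 62.2 to 279 CPM, so both species were above N. furzeri, the highest of which was in lane 1. The exception, the blood miRNA miR-144-5p, had 26.9 and 4.57 CPM, against 27.6 CPM in N. furzeri library 1 and 0 to 6.77 CPM in the other 4.

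Conversely, 67 miRNAs reached 50 RPM in all 5 N. furzeri libraries, and 59 of these did so in both other species. C. occidentalis was under 50 RPM for 8 of the 67: miR-17a-5p, miR-30b, miR-130b, miR-135a, miR-135b-5p, miR-141-3p, miR-199-5p and miR-430a-5p. N. papilliferus was under it for 2, miR-135b-5p and miR-430a-5p. miR-135b-5p had 15.8 RPM in C. occidentalis and 46.4 RPM in N. papilliferus, against 190, 55.3, 115, 226 and 381 RPM in N. furzeri libraries 1 to 5. Both species lay below all 5, N. papilliferus close to library 2.

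**Figure D1:**
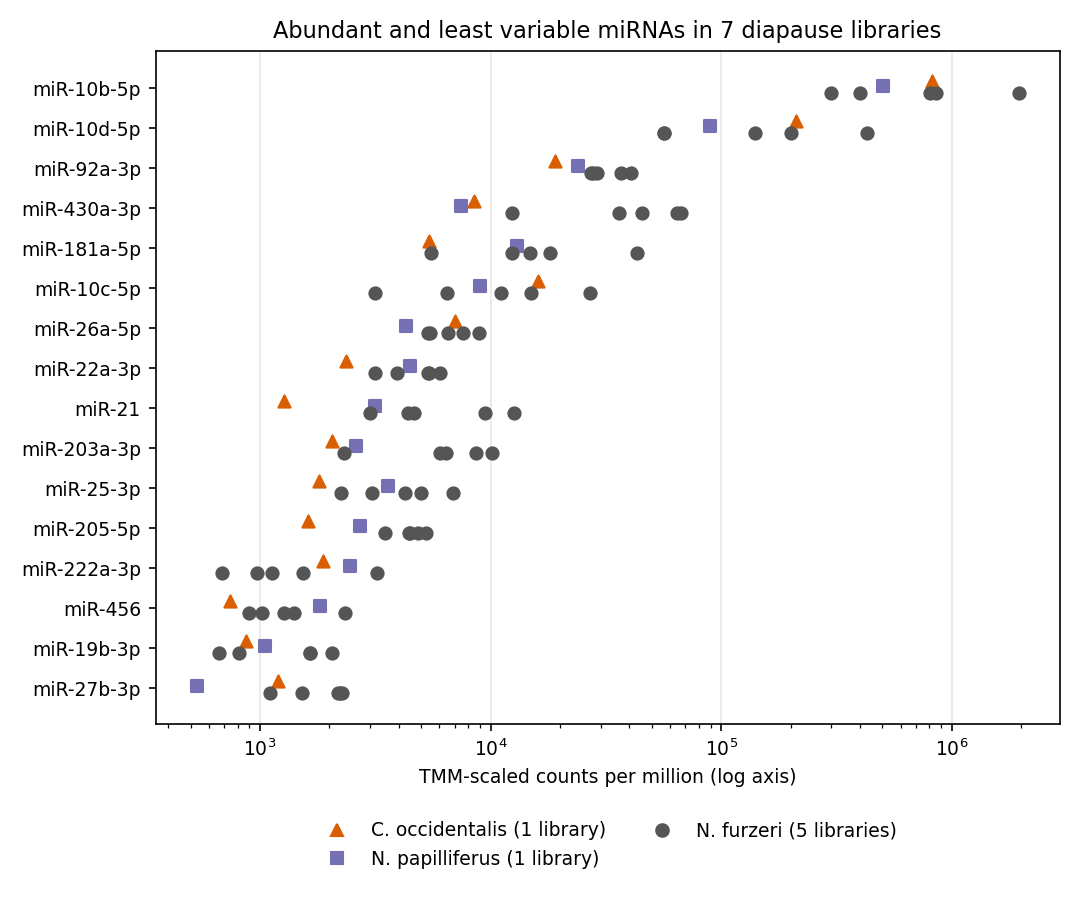
TMM-scaled CPM (log axis) of 16 abundant or steady shared miRNAs in the 7 diapause libraries. Triangles are C. occidentalis, squares N. papilliferus and circles the 5 N. furzeri libraries; for miR-10b-5p both species lie among the circles, and for miR-430a-3p and miR-205-5p they lie below all 5.

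**Figure D2:**
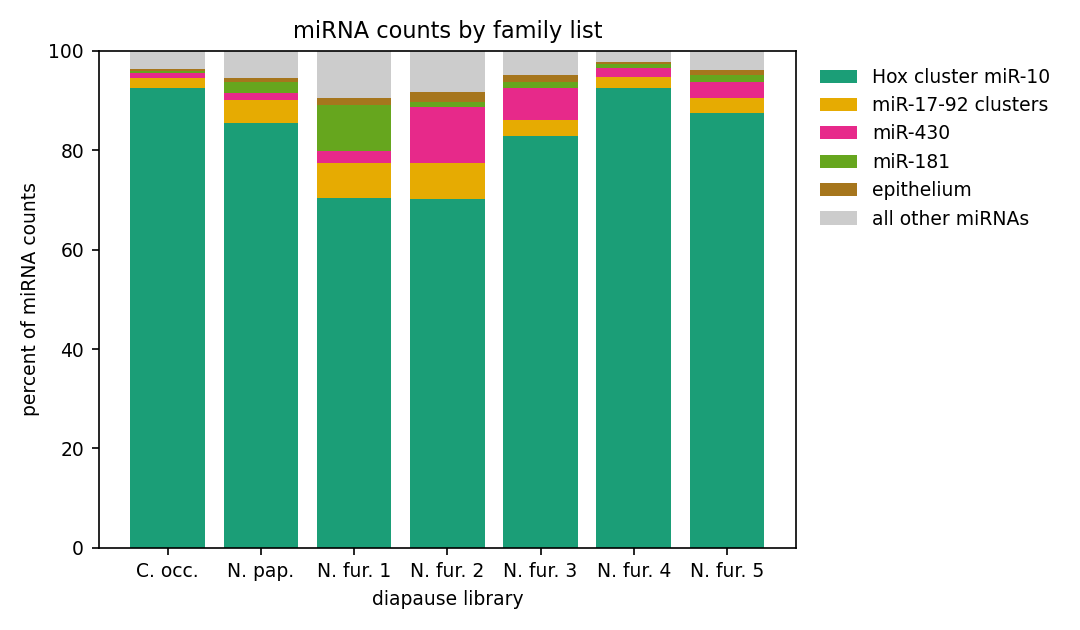
Percent of miRNA counts taken by 5 family lists in each diapause library, the rest in grey, 1 bar per library. The miR-10 family of the Hox clusters takes 92.4% in C. occidentalis and 85.5% in N. papilliferus, against 70.3% to 92.6% in N. furzeri; miR-181 is widest in N. furzeri library 1.

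Few miRNAs passed edgeR's test of the 2 species against N. furzeri with all 7 libraries. In the test of the mean of both species against N. furzeri, 2 of 204 miRNAs passed (0.98% of those tested): miR-1 was higher and miR-430a-5p lower (0.49% each). At an unadjusted p under 0.05 there were 40 (19.6%), 11 higher (5.39%) and 29 lower (14.2%). The median log2 fold change over all 204 was -0.53 (-0.22 with DESeq2's size factors), so a moderate drop of a single miRNA is close to what the typical miRNA did. Without N. furzeri library 1, 183 miRNAs were tested and 19 passed, 9 higher and 10 lower, with both of the 2 among them. The 19 also held miR-735-5p, miR-459-5p, miR-190b, miR-202-5p and miR-26a-3p. With all 7 libraries these passed the filter only through 1 side of the comparison, so their calls add no support. With DESeq2's Wald test 19 passed as well, 7 higher and 12 lower.

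miR-1, a miRNA of skeletal and heart muscle, rose the most clearly. It had 505 counts in C. occidentalis and 511 in N. papilliferus, against 13, 8, 19, 10 and 10 counts in N. furzeri libraries 1 to 5. As CPM these were 755 and 390, against 4.85, 9.04, 8.57, 6.34 and 9.80. The lower of the 2 species was far above the highest N. furzeri library, in lane 1 as in the pools. The log2 fold change was 6.14 (SE 0.46, adjusted p = 0.000191) for the mean of both species. Against N. furzeri it was 6.61 for C. occidentalis (SE 0.50, adjusted p = 0.000209) and 5.66 for N. papilliferus (SE 0.49, adjusted p = 0.00062). Both comparisons use the same N. furzeri libraries. miR-1 passed the test under each of the 16 alternatives run for the mean, the 4 libraries of lane 1 alone included (log2 fold change 6.61, adjusted p = 0.0170; range of adjusted p over the 16, 1.06e-25 to 0.0170).

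No other muscle miRNA passed the test of the mean. miR-206-3p, also of skeletal muscle, had 73.8 RPM in C. occidentalis and 77.7 RPM in N. papilliferus, against 32.0 to 129 RPM in N. furzeri. miR-133a-3p, which is transcribed together with miR-1 in many vertebrates, had 32.95 and 20.5 RPM, against 5.60 to 162 RPM in N. furzeri. Both lay inside the N. furzeri range in RPM. In CPM, miR-133a-3p in N. papilliferus was 14.5, against 14.6 in the lowest N. furzeri library. The muscle list took 0.0805% of counts in C. occidentalis (95% Wilson interval 0.0744% to 0.0872%) and 0.0671% in N. papilliferus (0.0620% to 0.0725%), against 0.00848% to 0.0359% in N. furzeri, with a mean of 0.0164% ± 0.0110 (SD, n = 5). Intervals here and below cover counting error only. Of its 5 members tested, 1 had a positive log2 fold change for the mean of both species and 4 a negative one, while 30.4% of all 204 had a positive one.

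Across the series miR-1 was not tied to the annual label. N. furzeri not in diapause had 2.33 to 10.5 RPM, as low as in diapause. Among the non-annual species it had 532 RPM in Aplocheilus lineatus and 381 RPM in Epiplatys dageti monroviae. It had only 21.5 RPM in Rivulus cylindraceus and 4.59 RPM in Austrofundulus leohoignei. The 4 libraries of Aphyosemion striatum, labelled Iconisemion striatum, had 2.91 to 21.4 RPM. The high libraries therefore came from 4 species, 2 annual and 2 non-annual. All 8 species were counted against the same miRNA names, and whether a difference in sequence between species cost counts was not tested.

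**Figure D3:**
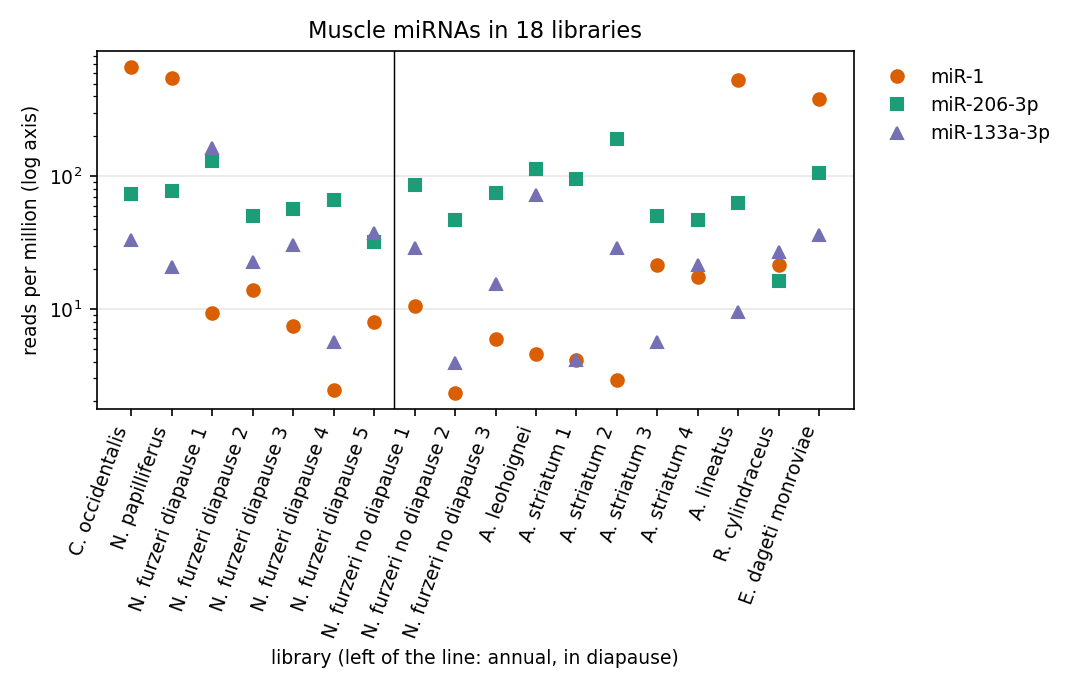
RPM (log axis) of 3 muscle miRNAs in each of the 18 libraries; the 7 diapause libraries are left of the line. miR-1 is above 380 RPM in C. occidentalis, N. papilliferus, A. lineatus and E. dageti monroviae and under 22 RPM in the rest, while miR-206-3p and miR-133a-3p overlap between species.

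miR-430a-5p, the 5p arm of a miR-430 precursor, fell. It had 16 counts in C. occidentalis and 0 in N. papilliferus, against 377, 189, 476, 270 and 170 in N. furzeri libraries 1 to 5. In CPM these were 23.9 and 0, against 141, 214, 215, 171 and 167. Neither species overlapped with N. furzeri. A count of 0 allows up to 3 counts, or 3.24 RPM in N. papilliferus. The counted level there was thus at least 60.9-fold lower than the N. furzeri mean of 197 RPM. This bound and those below for other miRNAs cover counting only. Whether a difference in sequence between species cost counts was not tested. The fitted log2 fold change of the mean, -6.99 (SE 0.73, adjusted p = 0.0013), rests on that 0. It passed in 13 of 16 alternatives, and the call was lost with library totals only (adjusted p = 0.0719), without N. papilliferus (-2.62, adjusted p = 0.143) and with both species fitted as 1 group (-3.67, adjusted p = 0.186). For N. papilliferus alone the call held (adjusted p = 0.00232), except with library totals only (adjusted p = 0.0619; range over 13 alternatives 0.000345 to 0.0619). For C. occidentalis the log2 fold change was -2.92 (SE 0.69) and did not pass (adjusted p = 0.159), though it did without N. furzeri library 1 and in DESeq2.

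The abundant 3p arm of the same family was also low in both species. miR-430a-3p had 8433 CPM in C. occidentalis and 7421 CPM in N. papilliferus, against 12346, 64174, 66656, 45274 and 36165 CPM in N. furzeri libraries 1 to 5. Both lay below all 5, nearest to library 1. The log2 fold change of the mean was -2.51 (SE 0.81) and did not pass (adjusted p = 0.133). Without N. furzeri library 1 it was -2.61 and passed (adjusted p = 0.0270; range over 16 alternatives 0.0270 to 0.820). miR-430c-3p overlapped with N. furzeri, with 1069 and 2416 CPM, against 937 to 9183 CPM.

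The miR-430 list as a whole took 0.840% of counts in C. occidentalis (95% Wilson interval 0.820% to 0.861%) and 1.39% in N. papilliferus (1.37% to 1.42%). In N. furzeri it took 2.58%, 11.2%, 6.45%, 1.87% and 3.23%. None of its 4 members tested had a positive log2 fold change, while 30.4% of all 204 had one. miR-430a-3p still had rank 5 in C. occidentalis and rank 6 in N. papilliferus, against ranks 2 to 5 in N. furzeri, so it stayed among the abundant miRNAs of all 7 libraries. Outside diapause, miR-430a-5p had 169 to 575 RPM in N. furzeri. Among the non-annual species it was at 0 in A. leohoignei, R. cylindraceus and 2 of the 4 A. striatum libraries. It was at 4.16 and 1.86 RPM in the rest of A. striatum, at 2466 RPM in A. lineatus and at 2822 RPM in E. dageti monroviae. miR-430a-3p had 227626 to 457344 RPM in A. striatum, 618699 RPM in R. cylindraceus and 18864 RPM in A. leohoignei. It had 80858 RPM in A. lineatus and 32501 RPM in E. dageti monroviae. A 5p count at or near 0 was thus also found beside a very abundant 3p arm.

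Several less abundant miRNAs lay on the high side in both species without passing the test of the mean. miR-735-5p had 56.7 RPM in C. occidentalis and 141 RPM in N. papilliferus, against 0, 3.45, 1.96, 0.487 and 6.40 RPM in N. furzeri libraries 1 to 5. The groups did not overlap, and the log2 fold change was 4.96 (SE 1.05, adjusted p = 0.0633; 4.72 and adjusted p = 0.00169 without N. furzeri library 1). miR-735-5p passed the filter only through C. occidentalis and N. papilliferus, so its p-values add no support. The 4 A. striatum libraries had more, 364 to 542 RPM, while A. lineatus had 54.0 RPM, R. cylindraceus 32.3 RPM, E. dageti monroviae 1.91 RPM and A. leohoignei 0.917 RPM. Low and high levels were thus both found among the non-annual species. miR-1 and miR-735-5p were the only miRNAs that reached 50 RPM in both species and in no N. furzeri diapause library.

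miR-30c-5p, of a family found in most tissues, had 1637 CPM in C. occidentalis and 2058 CPM in N. papilliferus, against 477, 732, 569, 514 and 440 CPM in N. furzeri. It was above N. furzeri in both species on the CPM and RPM scales, by 1.75 on the log2 scale (SE 0.39, adjusted p = 0.0633). It passed in 6 of 16 alternatives, among them without N. furzeri library 1 (1.84, adjusted p = 0.0270). Within lane 1 alone the log2 fold change of miR-30c-5p was 1.90 (SE 1.37). Over the 18 libraries, those of lane 1 had at least 918 RPM of miR-30c-5p and those of the pools at most 756 RPM. The part of lane or pool in its difference was not tested. miR-192, a liver and gut miRNA, had 5469 and 2370 CPM, against 1869, 1222, 1002, 1043 and 888 CPM. In RPM, N. papilliferus with 3356 lay below the 3596 of N. furzeri library 1. The log2 fold change was 1.58 (SE 0.44, adjusted p = 0.107). It passed in 3 of 16 alternatives, among them without N. furzeri library 1 (1.93, adjusted p = 0.0238). The lane 1 libraries of N. furzeri were the highest of the 5 in CPM, as for 10.8% of the 204 miRNAs.

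On the low side, miR-458-3p had 17.9 CPM in C. occidentalis and 6.86 CPM in N. papilliferus, against 82.2, 38.4, 106, 74.8 and 76.4 CPM in N. furzeri (log2 fold change -2.76, SE 0.61, adjusted p = 0.0633). Without N. furzeri library 1 it passed (-2.61, adjusted p = 0.0282). miR-190b had no count in either species, against 51, 6, 26, 13 and 7 counts in N. furzeri. At the 3 counts that a 0 allows per library, it was at least 3.34-fold lower in C. occidentalis and at least 4.07-fold lower in N. papilliferus than the N. furzeri mean. miR-26a-3p, the minor arm of the steady miR-26a-5p, also had 0 in both, against 14, 12, 35, 13 and 4 counts. It was at least 2.57-fold and 3.14-fold lower than the N. furzeri mean. For miR-190b and miR-26a-3p alike, the lowest N. furzeri library had 3.17 RPM. A 0 allows 3.95 RPM in C. occidentalis and 3.24 RPM in N. papilliferus, so neither miRNA was separated from every N. furzeri library. miR-190b and miR-26a-3p passed the filter only through N. furzeri, so the calls given here for them add no support. Neither miR-190b (adjusted p = 0.0633) nor miR-26a-3p (adjusted p = 0.0751) passed the test with all 7 libraries. Without N. furzeri library 1 both did (adjusted p = 0.0331 each), as did miR-26a-3p with all 18 libraries (adjusted p = 0.0126).

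Taken over the 204 miRNAs, both species lay above all 5 N. furzeri libraries for 14 (6.86%) and below all 5 for 31 (15.2%) in CPM. In RPM these were 10 (4.90%) and 16 (7.84%). miR-18c of the miR-17-92 family, miR-29a, miR-29b, miR-101a and miR-135b-5p were among the 31.

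**Figure D4:**
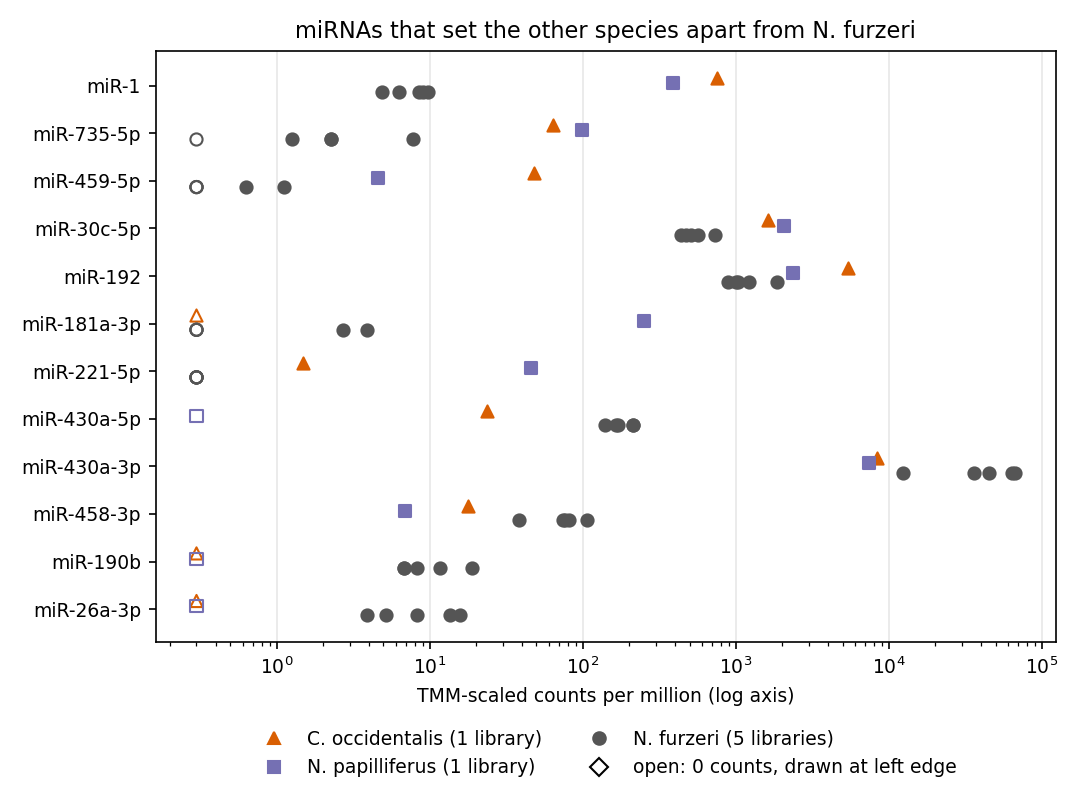
TMM-scaled CPM (log axis) of 12 miRNAs named for a difference between the 2 species and N. furzeri; open symbols at the left edge are libraries with 0 counts. miR-1 at 755 and 390 CPM lies far right of the 5 N. furzeri circles at 4.85 to 9.80 CPM, and miR-181a-3p and miR-221-5p are high in N. papilliferus alone.

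Against N. furzeri alone, 2 of 204 miRNAs passed for C. occidentalis (0.98%), miR-1 and miR-459-5p, and both were higher. miR-459-5p was named after its values were seen and passed the filter only through C. occidentalis, so its call adds no support. It had 32 counts in C. occidentalis and 6 in N. papilliferus, against 3, 0, 0, 1 and 0 in N. furzeri. Its log2 fold change of 6.53 (SE 1.14, adjusted p = 0.0466) rests on few counts, and the call was lost when any of N. furzeri libraries 2 to 5 was left out, with library totals only and within lane 1 (adjusted p over 12 alternatives 0.0014 to 0.261). A. leohoignei had 374 RPM of miR-459-5p, against 42.2 RPM in C. occidentalis. miR-103, a miRNA of most tissues, had 95.7 CPM in C. occidentalis, against 448 to 708 CPM in N. furzeri, and 443 CPM in N. papilliferus. Its log2 fold change in C. occidentalis was -2.56 (SE 0.66, adjusted p = 0.159).

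For N. papilliferus 3 of 204 passed (1.47%): miR-1 and miR-181a-3p were higher and miR-430a-5p lower. miR-181a-3p, the minor arm of miR-181a, was also named after its values were seen and passed the filter only through N. papilliferus, so its call adds no support either. It had 329 counts in N. papilliferus, against 0, 0, 6, 0 and 4 in N. furzeri, and 0 in C. occidentalis. Its log2 fold change was 7.54 (SE 1.31, adjusted p = 0.0302; range over 13 alternatives 6.19e-05 to 0.457). The major arm miR-181a-5p stayed inside the N. furzeri range in N. papilliferus, so the 5p share of miR-181a counts was 98.1% there, against 99.97% to 100% in N. furzeri. miR-221-5p had 60 counts in N. papilliferus, against 0 in all 5 N. furzeri libraries, and 1 in C. occidentalis. At 3 counts in each N. furzeri library, a mean of 2.33 RPM, it was at least 27.8-fold higher in N. papilliferus. It too passed the filter only through that library, so its p-values add no support (adjusted p = 0.0845, and 0.0076 without N. furzeri library 1). Some non-annual species also had both arms. R. cylindraceus had 1014 RPM of miR-181a-3p and 255 RPM of miR-221-5p. A. leohoignei had 255 and 15.6 RPM, and E. dageti monroviae 93.4 and 15.3 RPM. The A. striatum and A. lineatus libraries had at most 5.32 and 7.98 RPM, both in an A. striatum library of lane 1. R. cylindraceus, A. leohoignei and E. dageti monroviae were also of lane 1. Pool libraries had at most 3.20 RPM of miR-181a-3p and 2.49 RPM of miR-221-5p. C. occidentalis and N. furzeri libraries 1 and 2, of lane 1 too, had 0 counts of miR-181a-3p and at most 1 of miR-221-5p. The part of lane or pool was not tested.

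Between C. occidentalis and N. papilliferus themselves 0 of 204 miRNAs passed edgeR's test (0.0%), with 16 (7.84%) at an unadjusted p under 0.05, and 0 passed DESeq2's. With 1 library each, this test takes all of its spread from N. furzeri and says nothing of how C. occidentalis or N. papilliferus embryos vary. miR-430a-5p came nearest (16 counts in C. occidentalis, 0 in N. papilliferus, adjusted p = 0.0505). It passed without N. furzeri library 1 (adjusted p = 0.0416) and among miRNAs of at least 50 CPM (adjusted p = 0.0412; range over 13 alternatives 0.0412 to 1). For miR-1 the difference was 0.95 on the log2 scale (adjusted p = 0.836), for miR-735-5p -0.64 (adjusted p = 0.954), for miR-459-5p 3.36 (adjusted p = 0.638) and for miR-103 -2.21 (adjusted p = 0.471). miR-459-5p, miR-103, miR-181a-3p and miR-221-5p were thus not shown to differ between the 2 species by a test of that difference.

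Counted by family, 14 of 29 lists in C. occidentalis took a share of counts outside the N. furzeri range, 2 above and 12 below. In N. papilliferus it was 7 of 29, 3 above and 4 below. For single miRNAs in RPM, the same scale, 35.3% of the 204 lay outside the range in C. occidentalis and 28.4% in N. papilliferus, so a list outside the range is common and is given as a description. With miR-10b-5p left out of the total the counts were 17 in C. occidentalis, 4 above and 13 below, and 11 in N. papilliferus, 8 above and 3 below. Without N. furzeri library 1 they were 15, 3 above and 12 below, and 13, 9 above and 4 below. Muscle was above in both species, and miR-430 and miR-29 below in both, under each of these choices. Most of the muscle list in the 2 species was miR-1, with 666 and 552 RPM, so the position of that list is not a separate result. miR-101 was below in both on the full total, but inside the range in N. papilliferus with miR-10b-5p left out. Then the liver and gut list (1.76% and 1.19%, against at most 0.861%) and the vessel list of miR-126 (0.288% and 0.279%, against at most 0.264%) were above in both species. Without library 1 alone, the liver and gut and the sensory lists were above in both, and let-7, neural, pancreas and miR-181 were also above in N. papilliferus. The miR-29 list, whose members act on matrix genes in other vertebrates, took 0.00211% of counts in C. occidentalis (0.00130% to 0.00343%) and 0.00173% in N. papilliferus (0.00106% to 0.00281%), against 0.00253% to 0.0152% in N. furzeri. Both intervals reach the lowest N. furzeri library, so the miR-29 shares do not separate at this depth. miR-29a had 12 counts in each species, against 17 to 161 in N. furzeri, and miR-29b had 4 in each, against 16 to 51. Their log2 fold changes of the mean were -1.66 (SE 0.65, adjusted p = 0.222) and -2.15 (SE 0.70, adjusted p = 0.133). For miR-101, 0.0141% in C. occidentalis (0.0117% to 0.0170%) was below the lowest N. furzeri share of 0.0309%, while the interval of N. papilliferus reached it (0.0277%, 0.0246% to 0.0314%). miR-101a did not pass the test of the mean (log2 fold change of the mean -1.53, SE 0.66, adjusted p = 0.255).

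Other lists lay outside the N. furzeri range in 1 of the 2 species. The liver and gut list took 0.490% of counts in C. occidentalis (0.474% to 0.506%), and 0.338% in N. papilliferus, against 0.0409% to 0.367% in N. furzeri. Most of this list was miR-192, with 4822 RPM in C. occidentalis and 3356 RPM in N. papilliferus. miR-122, the main liver miRNA, had 53.8 CPM in C. occidentalis and 9.15 CPM in N. papilliferus, against 2.71 to 17.8 CPM in N. furzeri. The lane 1 libraries of N. furzeri had the highest shares of this list, 0.367% and 0.189%, and the others 0.0878%, 0.0409% and 0.0734%. Without library 1, N. papilliferus was above the N. furzeri range as well. Both lane 1 libraries were above the pools in RPM for 45.1% of the 204 miRNAs, so this order is common on that scale. The part of the lane or pool in the list's difference was not tested.

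The list of miR-130, miR-301 and miR-454 took 0.0535% in C. occidentalis and 0.275% in N. papilliferus, against 0.114% to 0.250% in N. furzeri, so the 2 species lay on opposite sides of N. furzeri. miR-130c-3p, its main member, had 505 CPM in C. occidentalis and 1612 CPM in N. papilliferus, against 839 to 2791 CPM in N. furzeri. The list of miR-103 and miR-107 took 0.0115% in C. occidentalis and 0.0809% in N. papilliferus, against 0.0309% to 0.107% in N. furzeri. In C. occidentalis the lists of miR-181, miR-21, epithelium, lens and retina, pancreas, cartilage and mesenchyme, and miR-196 were also below the N. furzeri range. In N. papilliferus miR-15/16 was above it and miR-23/27/24 below.

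The neural and blood lists lay inside the N. furzeri range in both species. The neural list took 0.0250% of counts in C. occidentalis and 0.0480% in N. papilliferus, against 0.00958% to 0.0326% in N. furzeri libraries 2 to 5 and 0.685% in library 1. miR-9-7-3p, a neural miRNA, had 129 CPM in C. occidentalis and 57.9 CPM in N. papilliferus, against 2060 CPM in N. furzeri library 1 and 5.41 to 9.51 CPM in the other 4. Without library 1 it passed the test of the mean as higher in the 2 species (log2 fold change 3.62, adjusted p = 0.00169; range over 15 alternatives 0.00169 to 0.882), and with it the value was -2.28 (adjusted p = 0.743). Its direction thus depended on that library. The blood list was low in all 7 libraries, with 0.00409% in C. occidentalis and 0.00367% in N. papilliferus, against 0.000634% to 0.0107% in N. furzeri.

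Over the 93 miRNAs averaging at least 50 CPM, the order of levels in C. occidentalis had a Spearman correlation of 0.749 to 0.815 with the N. furzeri libraries. For N. papilliferus it was 0.806 to 0.860, and between the 2 species it was 0.860. Pairs of N. furzeri libraries gave 0.736 to 0.941, the lower values all with library 1. These correlations run across miRNAs that share a library and its depth, and describe likeness only. Library 1 had 0.736 to 0.798 with the other N. furzeri libraries, against 0.810 to 0.860 between N. papilliferus and those 4.

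The shares of the 2 arms of some precursors differed between the lane 1 and pool libraries of N. furzeri, and these precursors were picked after their values were seen. The 5p arm of miR-30e took 66.4% of the counts of both arms in C. occidentalis and 56.9% in N. papilliferus, against 52.4% and 49.6% in N. furzeri libraries 1 and 2 and 13.9%, 5.80% and 14.3% in libraries 3 to 5. For miR-126b the 5p arm took 34.2% and 29.3%, against 40.1% and 38.9% in the lane 1 libraries and 71.7%, 72.2% and 77.7% in the pools. For miR-222a it took 15.0% and 27.1%, against 25.3% and 24.8% in lane 1 and 46.9%, 39.0% and 43.2% in the pools. For miR-30e, miR-126b and miR-222a the 2 species were nearer to the lane 1 libraries of N. furzeri than to its pools. miR-203a did not follow this. Its 5p arm took 1.442% and 2.358% in the lane 1 libraries of N. furzeri and 1.005%, 0.9065% and 0.4504% in its pools. C. occidentalis with 0.9339% lay among the pools, and N. papilliferus with 6.497% above all 5 N. furzeri libraries. How many precursors went each way was not counted. The 5p counts of miR-126b may include reads of miR-126a-5p, as said above. For miR-126a the 5p arm took 60.9% and 85.9% in the lane 1 libraries of N. furzeri. In its pools it took 92.3%, 79.1% and 83.5%, so lane 1 and the pools overlapped there. N. furzeri libraries 2 (lane 1) and 3 (pool 3), both of strain MZM0410, also differed in this direction for miR-30e, miR-126b and miR-222a. The 3 libraries of MZM0410 not in diapause, all of pool 3, had 7.27% to 13.6% for miR-30e, 70.5% to 74.8% for miR-126b and 36.3% to 40.7% for miR-222a, nearer to the pools. The non-annual libraries, some of lane 1 and some of pool 3, had 24.5% to 82.7% for miR-30e. Those of pool 3 were thus above every N. furzeri pool library for miR-30e. Non-annual libraries had 11.7% to 78.5% for miR-126b and 6.54% to 62.2% for miR-222a. These ranges span both the lane 1 and the pool libraries of N. furzeri, and were not split by lane or pool. Time in diapause is not given for the lane 1 libraries of N. furzeri. The parts of lane or pool, strain and time in diapause in these differences were not tested. miR-221 differed from this: its 5p arm took 0.488% in C. occidentalis and 14.4% in N. papilliferus, against 0% in each N. furzeri library, lane 1 included.

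**Figure D5:**
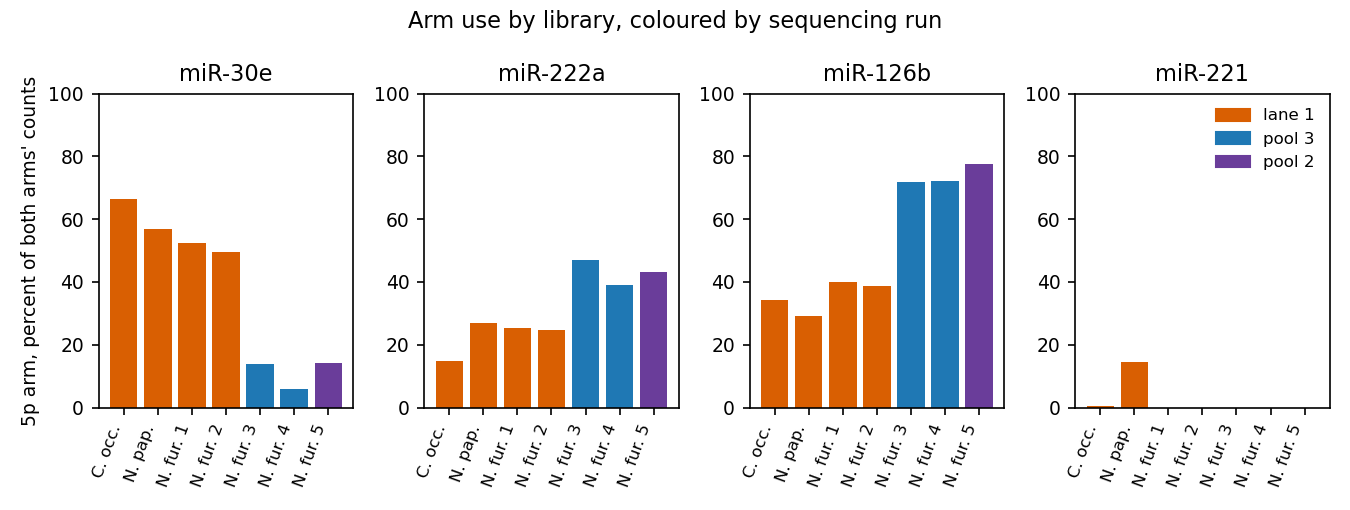
Counts on the 5p arm as a percent of both arms' counts for 4 precursors, 1 bar per diapause library, coloured by the lane or pool in the library's name. miR-30e is high and miR-222a and miR-126b are low in the 4 lane 1 libraries of 3 species, whereas miR-221 has 14.4% in N. papilliferus and 0% in all 5 N. furzeri libraries.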

How the data were processed

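Per the labels' protocols, libraries of small RNA came from the TruSeq kit of Illumina. The authors filtered reads for quality, trimmed adapters, kept 18 to 33 nt and aligned them, per the file headers. Per the submitters' processing notes, the tools were Bowtie 1.1.2 and Bowtie 1.0.0, bcl2fastq 1.8.3 and CASAVA 1.8.2. Not given in the sources used here are the reference sequences, the mismatches allowed and how multiple matches were handled.

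The deposited values are raw counts for each mature miRNA and RPM, which the authors computed as counts over the library total (100% of values within 0.001). Tests used the counts. A total line was left out, as were 2 columns matching no sample. Between 3.02% and 77.3% of 18 to 33 nt reads per diapause library were counted.

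edgeR 4.0.16 (R 4.3.3) fitted 3 species groups with filterByExpr, TMM factors (0.384 to 1.92) and the quasi-likelihood test, with a threshold of 0.05. The fit had 4 residual degrees of freedom, all from N. furzeri. The script was tested on simulated data. Wilson intervals are at 95%. No pair of N. furzeri libraries agreed within counting noise.

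miRNAs were named if they passed with at least 50 CPM on average and lay outside the N. furzeri range (up to 8 per direction), were among the 10 most abundant or the 10 steadiest of at least 500 RPM, or led 1 of 29 family lists. miRNAs on the edge of the test, at 0 or marking a list were added after their values were seen. The libraries and lists were chosen with earlier results of these data known. Alternatives were other scalings, filters and fits, DESeq2 1.42.0, lane 1 only and each library left out.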

Additional observations from a re-analysis of the deposited data

Results flagged for a closer look

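Single N. furzeri libraries stood far from the other 4 in 11 of 74 sets of values examined, and 10 of the 11 were high values in library 1. The sets share the same 5 libraries, and some lists were examined along with their own members. The 11 are therefore not set against a rate by chance. In that library the neural list took 0.6851% of counts, the sensory list 1.141%, miR-181 9.231%, let-7 0.2849%, cartilage and mesenchyme 0.2111%, miR-101 0.07946%, muscle 0.03585% and miR-29 0.01523%. miR-9-7-3p was at 2060 CPM and miR-144-5p at 27.63 CPM there. The other high value was miR-735-5p in library 5, at 7.84 CPM, which was still below the 64.3 CPM of C. occidentalis and the 99.9 CPM of N. papilliferus. Library 1 is the only one of strain MZM0403, so strain and library cannot be told apart.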

How the results depend on the processing

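miR-1 kept its direction and its call in all 16 alternatives for the mean, all 13 for C. occidentalis and all 13 for N. papilliferus. The number of miRNAs called moved more. For the mean it was 5 with DESeq2's size factors, 1 with library totals only, 4 with TMM without the 10 most abundant, 4 among miRNAs of at least 50 CPM, 19 in DESeq2's Wald test, 9 with all 18 libraries, and 2 to 19 with 1 library left out. For C. occidentalis it was 1 with library totals only, 11 in DESeq2, 4 with all 18 libraries and 1 to 12 with 1 library left out. For N. papilliferus it was 5 with DESeq2's size factors, 5 without the 10 most abundant, 8 in DESeq2, 7 with all 18 libraries, 5 within lane 1 and 2 to 10 with 1 library left out. Between the 2 species it was 1 among miRNAs of at least 50 CPM and 0 to 1 with 1 library left out. The highest counts with 1 library left out were all without N. furzeri library 1.

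Shared miRNAs numbered 91 at 10 RPM and 20 at 500 RPM. Lists outside the N. furzeri range in N. papilliferus numbered 11 with miR-10b-5p left out of the total and 7 to 13 with 1 N. furzeri library left out, the most without library 1. In C. occidentalis they numbered 14 to 19 with 1 left out. Leaving libraries out of the list ranges was chosen after seeing the data.

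Some log2 fold changes of the mean that had not passed changed sign. miR-10b-5p was 0.11 with library totals only, 0.0035 at 50 CPM, 1.19 within lane 1 and -0.60 to 0.37 with 1 library left out. miR-26a-5p was 0.0078 with DESeq2's size factors, 0.0078 in DESeq2, 0.11 at 50 CPM, 0.072 with all 18 libraries, 0.068 with the 2 species as 1 group and -0.44 to 0.35 with 1 library left out. miR-456 was 0.038 with DESeq2's size factors, 0.038 in DESeq2, 0.13 at 50 CPM, 0.15 with all 18 libraries, 0.20 with the 2 species as 1 group and -0.61 to 0.62 with 1 library left out. miR-25-3p was 0.24 within lane 1. With 1 library left out, miR-22a-3p ranged between -0.71 and 0.13 and miR-9-7-3p between -2.66 and 3.62. The cause of these changes was not tested.

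Within lane 1 only 2 N. furzeri libraries remain. No paired analysis was possible because 2 of the 3 species have 1 library each and replicate numbers only follow the order of the samples. Depth limits miRNAs near the 3 counts that a 0 allows, 0.731 to 5.18 RPM per diapause library.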
